A study of Mus musculus with 22 samples.

Results

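Sorted side population cells of the mouse lung tumour line A2C12 were compared with and without prior exposure to a monoclonal antibody against mouse EpCAM. The comparison rests on 6 of the 22 arrays of the series. The 3 arrays titled as anti-EpCAM treated cells formed one group, and the 3 arrays titled simply as side population cells formed the other. A2C12 derives from a lung tumour of a double transgenic mouse carrying c-myc and c-raf on the C57BL/6 background, so both groups share these transgenes and the same strain. The antibody was given at 100 µg/ml for 48 h. Cells were then stained with the DNA dye Hoechst at 5 µg/ml for 90 min, and those that excluded the dye were sorted. The labels describe the comparison cells as untreated and name no control antibody. The treatment text is the same on all 6 samples, so the groups were taken from the titles. The other 16 arrays hold lung of non-transgenic mice, 8 labelled male and 8 labelled female, and are used here only to show what a probe set read in another tissue. All 6 cell samples come from 1 cell line, so their p-values measure the spread between preparations of that line and not between tumours.

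EpCAM is a transmembrane glycoprotein of epithelial cells that mediates adhesion and sits in membrane complexes with claudins, tetraspanins and CD44. Its ectodomain can be shed by ADAM proteases, after which gamma-secretase releases the intracellular tail, which has been reported to enter the nucleus with FHL2 and beta-catenin and to drive genes such as cyclin D1 and Myc. A side population is defined by ATP-binding cassette (ABC) pumps that export Hoechst dye, and in tumours it is often studied as a fraction enriched for progenitor-like cells.

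The 6 cell arrays were of similar brightness, with mean intensities from 288.9 to 301.8 and medians from 39.3 to 40.6. Pairs of arrays correlated across probe sets at 0.973 to 0.981 within the untreated group, at 0.957 to 0.976 within the antibody group and at 0.972 to 0.982 between the groups. Arrays of different groups were thus about as alike as arrays of the same group. The antibody group held the arrays farthest apart. On the first principal component, which carried 35.8% of the variance, antibody 2 lay at -40.7 and antibody 3 at 41.1, with the other 4 arrays between -11.4 and 14.0. RNA from these cells is a bulk measurement, so fewer cells of a kind and less RNA per cell cannot be told apart.

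The antigen gene itself did not separate the groups. The Epcam probe set 1416579_a_at read 0.103, 5.80 and 3.66 in untreated cells and 0.0752, 11.1 and 1.46 in antibody-treated cells, in units of deposited intensity. These values lie near 0 and overlap (exact two-sided permutation p = 0.9, where 0.1 is the smallest p that 3 against 3 arrays allow). The same probe set read 644 to 1617 in lung, with a median of 770. The other Epcam probe set, 1447899_x_at, is of the type that can cross-hybridize. It read 257, 325 and 332 in untreated and 259, 290 and 337 in antibody-treated cells, a log2 difference of -0.04 ± 0.16 (SE, n = 3 per group) with a 95% interval of -0.42 to 0.33. Lung read 167 to 257 on 1447899_x_at, with a median of 199. The cells thus read below lung on the first set and at or above its highest value on the second. The groups overlapped on both probe sets.

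Across the array, 3 of 27499 tested probe sets passed an adjusted p of 0.05, which is 0.0109% of those tested. One was higher after antibody (0.00364%) and 2 were lower (0.00727%). The test was limma's moderated test on log2(intensity + 16), adjusted by Benjamini-Hochberg over all probe sets tested. At an unadjusted p under 0.05 there were 331. The groups did not overlap for 1053 probe sets, 3.83% of those tested, of which 432 (1.57%) were higher and 621 (2.26%) lower after antibody. Both counts are below the shares that arbitrary groups of 3 arrays would give, 0.05 for the p threshold and 0.1 for no overlap. Neither count, nor groups apart in a single gene, is thus by itself a sign of a difference. The median difference over all probe sets was -0.01 on the log2 scale, and 45.6% of differences were positive. The called probe sets read the cytokine antagonist gene Il1f5, the myelin glycoprotein gene Omg and a transcript that the supplied annotation does not list.

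**Figure D1:**
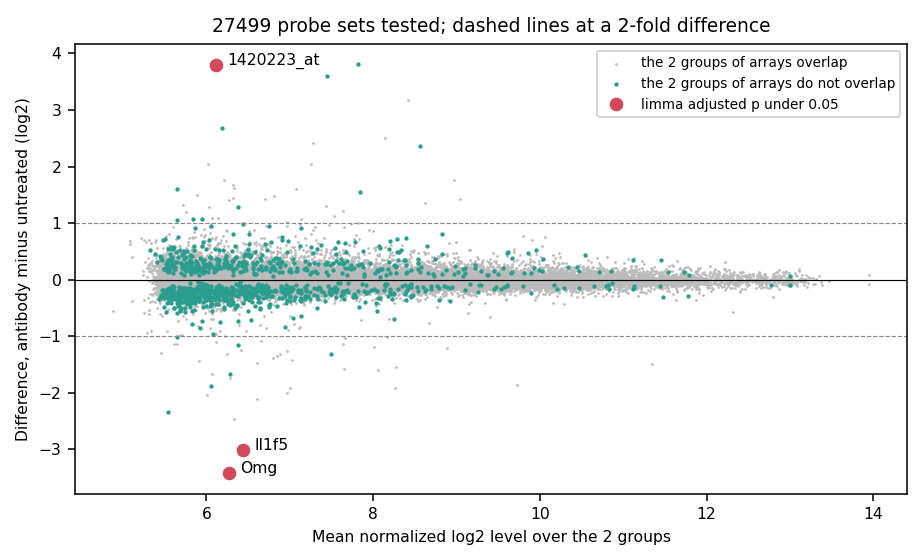
Difference between antibody-treated and untreated cells (log2, y axis) against the mean normalized log2 level of the 2 groups (x axis) for the 27499 tested probe sets. Green points are the 1053 probe sets whose groups of 3 arrays do not overlap, and red points are the 3 with a limma adjusted p under 0.05, which lie more than 3 log2 units from 0 and at low to middling levels.

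Il1f5 encodes the antagonist of the interleukin-36 receptor, which blocks inflammatory signalling by the interleukin-36 cytokines. Its probe set 1421370_a_at read 216, 200 and 199 in untreated cells and 11.3, 12.5 and 12.7 in antibody-treated cells. The untreated values are tight, the treated values all lie near background, and the groups are far apart. The level fell by 3.02 ± 0.12 (SE, n = 3 per group) on the log2 scale (limma adjusted p = 6.21e-05). Lung read between those groups, from 31.2 to 77.7 with a median of 60.4. A second Il1f5 probe set, 1426507_at, did not follow the first. It read 13.4, 23.5 and 28.1 in untreated and 18.0, 21.7 and 21.3 in antibody-treated cells, which overlap, and it lay below the filter on low values. Its lung range of 14.4 to 35.2 covers all but 1 of the cell values. A set that reads low in untreated cells, where the first reads high, cannot show the loss.

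The partners of Il1f5 were low in both groups. The receptor gene Il1rl2 read 13.4 to 14.0 in untreated and 15.8 to 23.4 in antibody-treated cells, below the filter, against 108 to 207 in lung. The interleukin-36 genes Il1f6, Il1f8 and Il1f9 read 21.6 to 45.4 over all 6 arrays, with differences of -0.17, -0.23 and -0.08 that did not pass. Of the 14 tested genes of the interleukin-1 family and its signalling, 1 was called, 0 others had groups apart, and the median difference was -0.08. Il33, an alarmin cytokine gene, read 4266, 5590 and 5502 in untreated and 5708, 5309 and 4062 in antibody-treated cells, with a difference of -0.07 ± 0.15. Il1rn, the interleukin-1 receptor antagonist gene, had the second largest difference of the family, -0.77 ± 0.85. That value rests on 1 array, since Il1rn read 527, 490 and 477 in untreated and 510, 35.1 and 945 in antibody-treated cells.

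Omg encodes oligodendrocyte myelin glycoprotein, a membrane-anchored protein of the nervous system that limits axon growth. Its only probe set, 1418212_at, read 204, 228 and 202 in untreated cells and 0.0407, 9.76 and 10.8 in antibody-treated cells. All 3 treated arrays lie near background and none overlaps the untreated ones. The level fell by 3.43 ± 0.21 (SE, n = 3 per group) on the log2 scale (limma adjusted p = 0.000926). Lung read 306 to 570, above both groups. In the RefSeq annotation of GRCm38.p6, Omg lies within the bounds of Nf1, the neurofibromin gene that restrains RAS. Nf1 read 142, 179 and 166 in untreated and 164, 184 and 180 in antibody-treated cells, with a difference of 0.09 ± 0.14 that did not pass. Evi2a, a neighbouring gene, gave a difference of -0.27 ± 0.23 and did not pass either.

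The rise belonged to probe set 1420223_at, for which the supplied annotation lists no gene. It read 2.88, 1.18 and 1.36 in untreated cells and 228, 172 and 260 in antibody-treated cells. The untreated arrays all read near 0 and the treated ones all read above every lung array, which ranged from 91.4 to 159. The difference was 3.80 ± 0.16 (SE, n = 3 per group) on the log2 scale (limma adjusted p = 6.21e-05). For all 3 calls one group reads near 0, so the size of the log2 difference depends on the offset of 16: with an offset of 1 it was -3.91 for Il1f5, -5.20 for Omg and 6.18 for 1420223_at, and with 64 it was -1.91, -2.06 and 2.20.

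**Figure D2:**
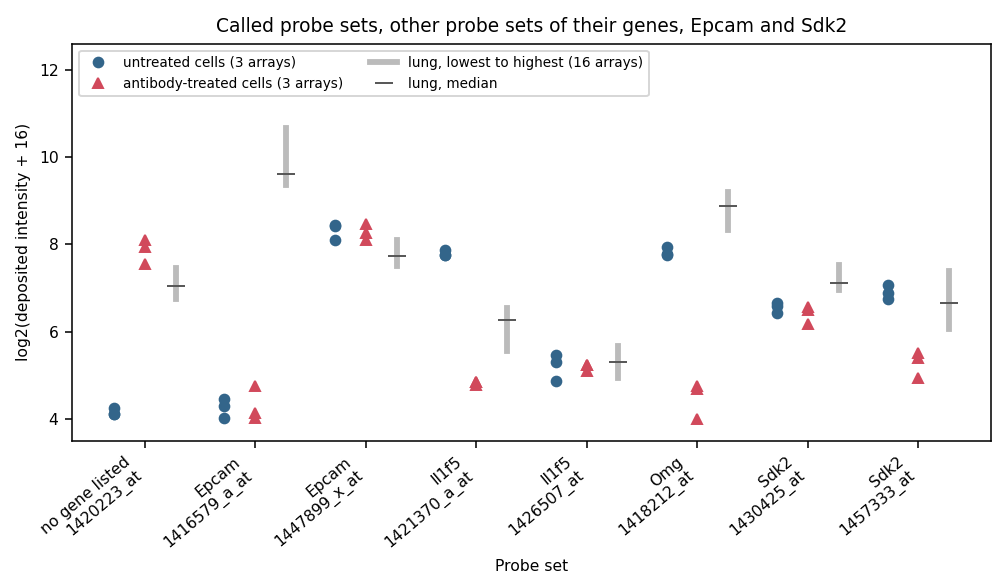
Deposited intensity as log2(intensity + 16) on each cell array for the called probe sets, the other probe sets of their genes, Epcam and Sdk2, with untreated cells as circles, antibody-treated cells as triangles and the range and median of 16 lung arrays in grey. The groups stand apart for 1420223_at, Il1f5 1421370_a_at, Omg and Sdk2 1457333_at, and overlap for both Epcam sets and for the second sets of Il1f5 and Sdk2.

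These on-off patterns were uncommon, and most of them did not follow the groups. Counting probe sets that read under 20 on 1 of the 6 arrays and over 100 on another gave 133, or 0.484% of those tested. In 114 of these, 85.7%, such a jump occurred between arrays of the same group. In 3 the groups lay on opposite sides of both limits, and these were the 3 called probe sets. In the other 16 the jump lay between groups without splitting them fully. Among the genes with the largest jumps within a group, Plau, the urokinase gene, read 3736, 4400 and 5829 in untreated and 9761, 13384 and 17.3 in antibody-treated cells. Ptn, a heparin-binding growth factor gene, read 1728, 1450 and 1786 in untreated and 16.4, 1552 and 1552 in antibody-treated cells. Agt, the angiotensinogen gene, read 9.78 on untreated 1 and 6.79 on antibody 2, with 1759 to 4568 on the other 4 arrays. The jump fell on a different array in each of these genes. The second probe sets of Plau (27.6 to 37.8) and of Ptn (18.3 to 38.7 and 85.5 to 231) showed no such jump. The same held for the methyltransferase gene Setd1a, whose set 1450336_at ran from 1.23 to 1402 while 1427116_at ran from 111 to 144. The second Plau set was as low in the cells as in lung (27.2 to 41.1), and the lower Ptn set was low on every cell array. Sets that stay low where the first set reads high cannot show its loss.

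Agreement between probe sets of 1 gene was used as a further reading of the comparison. Of 5911 genes with at least 2 tested probe sets, 1 (0.0169%) had all of them apart between the groups in the same direction. That gene was Wars2, the mitochondrial tryptophanyl-tRNA synthetase gene. Its sets read 128, 120 and 151 against 107, 115 and 82.8, and 90.9, 104 and 104 against 81.5, 90.5 and 84.3. Both were lower after antibody, by differences of -0.34 and -0.20, and neither passed. It is named here because its count was 1, after its values were seen.

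The probe sets next in order of p read lower after antibody and did not pass. Sdk2, a cell adhesion gene of the nervous system, read 118, 90.9 and 102 in untreated and 14.7, 26.4 and 29.8 in antibody-treated cells on 1457333_at. The difference was -1.67 (limma adjusted p = 0.0644). Its second set read 69.5, 80.5 and 84.5 against 55.7, 78.5 and 74.4, which overlap, with a difference of -0.15. The clone 2610037D02Rik gave -2.34 (limma adjusted p = 0.0591) on one set and 0.07 on the other. Further down, with adjusted p near 1, Chil4, a chitinase-like gene, gave -0.86, Magea4 -0.74, B3gntl1 -0.55, the urate transporter gene Slc22a12 -0.64, the nuclear receptor gene Rorb -0.43 and the proprotein convertase gene Pcsk5 -0.53. A second tested set pointed the same way for Slc22a12 (-0.24) and the other way for Rorb (0.08). The other sets of B3gntl1 and Pcsk5 lay below the filter.

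Among the probe sets that read higher after antibody, some were matched in direction by another set of their gene and others were not, and none beyond 1420223_at passed. Slc12a2, the sodium-potassium-chloride cotransporter gene, read 56.1, 41.6 and 54.9 in untreated and 131, 136 and 81.7 in antibody-treated cells, a difference of 0.95. Its other sets gave 0.75 and 0.16. Synj1, a phosphoinositide phosphatase gene of synaptic vesicle recycling, gave 0.61, 0.52 and -0.02 on its tested sets. Mia3, a gene for collagen export from the endoplasmic reticulum, gave 0.63, 0.22, 0.20 and 0.01. Polr3f, a subunit of RNA polymerase III, gave 1.28 and 0.49 on 2 sets and -0.03 and -0.09 on 2 others. The scavenger receptor gene Msr1 gave 0.66, from 31.4, 27.3 and 25.9 to 55.7, 44.9 and 54.4, and its other 3 sets lay below the filter. Csmd2 gave 2.67, with untreated values of 0.00603, 63.9 and 0.00656, with 1 untreated array unlike the other 2. Mphosph9, a mitotic phosphoprotein gene, gave 0.72 on 1 set and 0.02, -0.06 and 0.08 on its other tested sets. Rprd2 gave 0.51 on 1 set and 0.01, -0.03, -0.19 and 0.04 on the others.

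Membrane partners of EpCAM kept similar levels in both groups. The list covers EpCAM and its partners, and of its 12 measured genes 9 were tested. None of these was called or had groups apart, against the 3.83% of all probe sets whose groups did not overlap. Their median difference was near 0, and 8 of 9 had a 95% interval within 2-fold in either direction. Tspan8, a tetraspanin gene, had the largest difference, with 59.0, 36.4 and 50.7 in untreated and 119, 89.7 and 39.3 in antibody-treated cells, or 0.52 ± 0.31. Antibody 3 lies among the untreated values there. Cdh1, the E-cadherin gene, read 104, 71.0 and 146 against 155, 163 and 97.8, which overlap, and was far below its lung range of 1838 to 3817. The tetraspanin genes Cd9 and Cd81 gave differences of -0.13 and -0.06, the integrin gene Itgb1 gave -0.18 and the hyaluronan receptor gene Cd44 gave a value near 0 with an SE of 0.14. Cldn1 and Cldn7, claudin genes, lay below the filter, as did the Epcam set 1416579_a_at, and Cldn7 read 0.815 to 13.6.

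The proteases and effectors of EpCAM cleavage gave no calls. Of 15 listed genes 13 were measured, and all 13 were tested. None of these had groups apart, with a median difference of -0.01 and 12 of 13 intervals within 2-fold. Adam10, a sheddase gene, read 2727, 3339 and 3109 in untreated and 3235, 3268 and 2640 in antibody-treated cells (-0.01 ± 0.14). For Adam17 the difference was -0.06 and for Ctnnb1, the beta-catenin gene, -0.07 ± 0.11. Psen2, a catalytic subunit of gamma-secretase, had the largest value, 0.33 ± 0.21, from 215, 154 and 129 to 291, 184 and 176. The gamma-secretase subunit gene Aph1b gave -0.21.

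Genes reported downstream of the EpCAM tail did not pass either. Ccnd1, the cyclin D1 gene, read 4132, 3191 and 3741 in untreated and 4985, 4038 and 4007 in antibody-treated cells. The treated values lean higher but overlap, with a difference of 0.21 ± 0.12 and a 95% interval of -0.06 to 0.48. Myc read 982, 778 and 771 against 952, 915 and 797 (0.08 ± 0.14). Fabp5, a fatty acid binding protein gene, gave 0.16 ± 0.23, and the factor gene Klf4 a value near 0 with an SE of 0.14. The pluripotency genes Pou5f1, Nanog and Sox2 lay below the filter, between 0.00167 and 8.94. All 8 tested members had intervals within 2-fold.

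**Figure D3:**
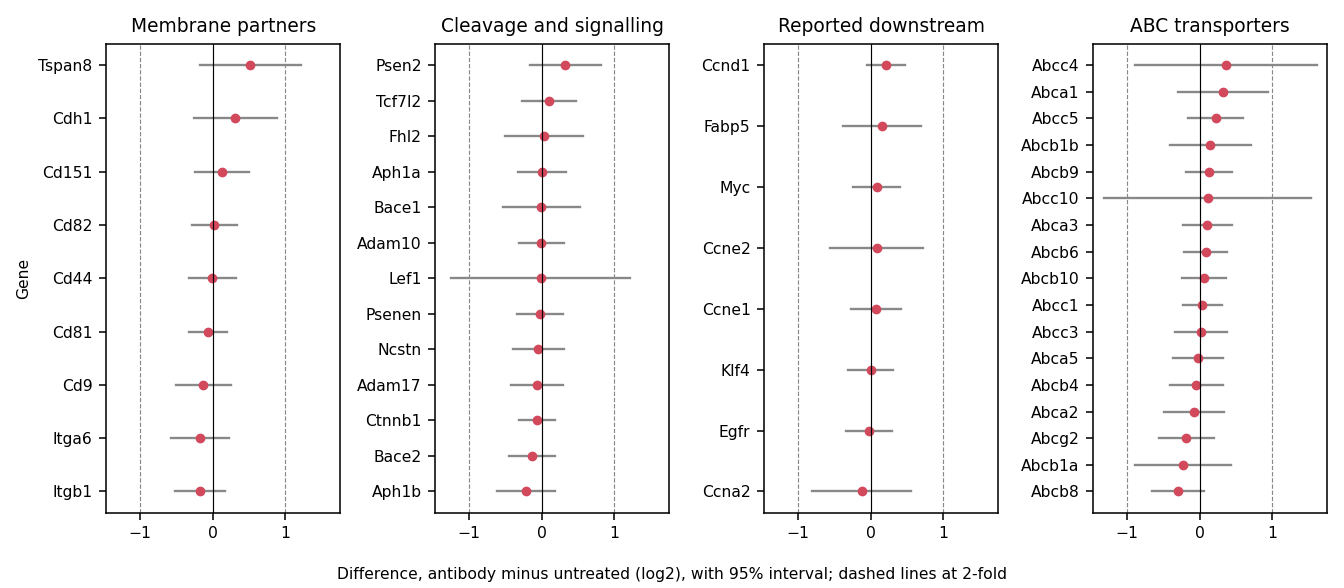
Difference between antibody-treated and untreated cells (log2, x axis) with the 95% interval of the limma fit for the tested genes of 4 lists (y axis). All intervals include 0, and most lie within the dashed lines at a 2-fold difference, the widest being those of Abcc4, Abcc10 and Lef1.

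The dye-exporting pumps that define the sorted fraction were likewise not called. Of 20 measured ABC transporter genes 17 were tested and 0 were called. Groups lay apart for 1 (Abcb8), against 3.83% of all tested probe sets. Abcg2, the pump most often held responsible for Hoechst export, read 171, 228 and 246 in untreated and 175, 185 and 194 in antibody-treated cells (-0.18 ± 0.17, interval -0.56 to 0.19). Abcb1b, a multidrug resistance pump gene, read 495, 452 and 420 against 616, 647 and 317 (0.15 ± 0.24). The widest spread was in Abcc4, a pump of cyclic nucleotides and prostaglandins, with 1773, 508 and 591 against 1050, 2177 and 485. Untreated 1 and antibody 2 were high and its difference was 0.36 ± 0.55. Abcc1 was steady at 1287 to 1619 over the 6 arrays. Abcb8, a mitochondrial transporter gene, read 182, 188 and 163 against 117, 152 and 154, a difference of -0.30 that did not pass.

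The transgene pathways of the line showed small differences. Of the 8 tested RAF, MEK and ERK cascade genes 0 were called, differences ran from -0.11 to 0.09, and all 8 intervals lay within 2-fold. Of 20 genes known as ERK output, 0 were called and 0 had groups apart, while 17 had a positive difference against 45.6% of all probe sets, with a median of 0.09. That median fell to 0.03 without untreated 2. Phlda1, an early response gene, read 2190, 1909 and 1954 in untreated and 2724, 1978 and 3232 in antibody-treated cells, and antibody 2 was inside the untreated range. For Hbegf, the heparin-binding EGF-like growth factor gene, the values were 321, 252 and 219 against 342, 278 and 449. Ereg, the epiregulin gene, read 538, 211 and 270 against 400, 619 and 233. In the MYC network 0 of 12 tested genes were called, with a median difference of 0.01. Mycn had the largest value there, -1.0 ± 0.67, from 19.5, 128 and 141 to 97.8, 12.1 and 19.0, so that each group held both low and high arrays. Mxd1, a gene for a MYC antagonist, gave 0.27 ± 0.15.

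Targets of Wnt and beta-catenin were mostly low or near background. Of 10 tested genes 0 were called and 1 had groups apart, against 3.83% of all tested probe sets. That gene was Ascl2, a transcription factor gene of intestinal stem cells, with 66.3, 58.2 and 63.2 in untreated and 37.8, 43.6 and 51.8 in antibody-treated cells (-0.40 ± 0.15). Nkd1, a Wnt feedback inhibitor gene, gave 0.41 ± 0.35, a value set by 3.21 on untreated 1 against 27.0 to 36.7 on the other 5 arrays. The median of the list was 0.09, with 0.03 without antibody 1 and 0.20 without antibody 3.

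Genes of cell death gave small differences. All 22 tested genes of the BCL2 family, caspases and their inhibitors had a 95% interval within 2-fold, 0 were called and 0 had groups apart. Differences ran from -0.19 for Bbc3 to 0.19 for Bcl2l11, both proapoptotic BH3-only genes. Mcl1, a survival gene, read 1761, 1746 and 1596 against 1856, 1784 and 1553. The 19 tested p53 targets also lay within 2-fold, with a median of 0.04. Cdkn1a, the p21 cell cycle inhibitor gene, read 2824, 1874 and 2107 in untreated and 2215, 3064 and 1995 in antibody-treated cells (0.11 ± 0.19).

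Proliferation genes did not separate the groups. Of 29 tested DNA replication genes and 26 tested mitosis genes 0 were called and 0 had groups apart, with median differences of -0.04 and -0.05 and every interval within 2-fold. Top2a, the topoisomerase gene of dividing cells, read 2046, 2377 and 3046 in untreated and 2700, 1619 and 3082 in antibody-treated cells. Cdk1, the mitotic kinase gene, read 2234, 2270 and 2770 against 2773, 1338 and 3059. For Birc5, the survivin gene, the values were 2580, 2704 and 3243 against 3053, 1299 and 3920. In each of these antibody 2 was the lowest of the 6 arrays and antibody 3 the highest. Pcna, the replication clamp gene, was also lowest on antibody 2 (4231), against 5074 to 6341 elsewhere.

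Inflammatory genes varied widely inside both groups. Of 22 tested NF-kappaB targets and cytokine genes 0 were called and 1 had groups apart, against 3.83% of all tested probe sets. Differences were positive for 19 and the median was 0.11, but only 14 of 22 had an interval within 2-fold. Il6, the interleukin-6 gene, read 1240, 306 and 328 in untreated and 1142, 1315 and 176 in antibody-treated cells (0.37 ± 0.71). Ptgs2, the inducible cyclooxygenase gene, read 3591, 786 and 1240 against 2524, 4014 and 633. For Cxcl1, a neutrophil chemokine gene, the values were 4021, 1890 and 1051 against 2763, 2899 and 1300. All 3 genes read higher on untreated 1, antibody 1 and antibody 2 than on the other 3 arrays. The gene whose groups lay apart was Tnf, at low values of 45.8 to 55.1 in untreated and 36.4 to 45.3 in antibody-treated cells (-0.24 ± 0.14), and it did not pass.

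Genes that an antibody might engage through its constant region gave no calls, and many read near background. Of 20 measured genes for Fc receptors, complement and its regulators, 10 were tested and 0 called, and 9 read under 20 on all 6 arrays. Trim21, the cytosolic antibody receptor gene, read 34.2, 35.4 and 45.4 in untreated and 53.1, 57.9 and 45.9 in antibody-treated cells. Its groups lie just apart, with a difference of 0.36 ± 0.15 that did not pass. Fcgr2b, the inhibitory Fc gamma receptor gene, read 94.3, 76.1 and 93.3 against 36.2, 118 and 76.8. Interferon-stimulated genes gave 0 calls in 18 tested, with a median of 0.03, and Rsad2, an antiviral gene, had groups just apart after normalization, at 24.6, 18.3 and 24.1 against 24.6, 26.1 and 30.0. Of 13 tested MHC class I presentation genes 12 had positive differences with a median of 0.08, which was 0.05 without antibody 1 and 0.19 without antibody 3. Tap1, a peptide transporter gene, had groups apart (85.1, 113 and 105 against 132, 116 and 139) and did not pass. Trim21, Rsad2 and Tap1 were each the only tested gene of their list with groups apart, against 3.83% of all tested probe sets.

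Genes of cholesterol synthesis and of glycolysis leaned lower after antibody without calls, by amounts that depended on single arrays. Of 20 cholesterol synthesis genes 18 had negative differences, with a median of -0.13. That median was -0.04 without antibody 2 and -0.08 without untreated 2. Sqle, the squalene epoxidase gene, was the only one with groups apart, against 3.83% of all tested probe sets. It read 2460, 2283 and 2476 in untreated and 2131, 2203 and 2181 in antibody-treated cells (-0.12 ± 0.10). Fdps, the farnesyl diphosphate synthase gene, read 2310, 2520 and 1771 against 2179, 1108 and 2618, with antibody 2 the lowest array and antibody 3 the highest. Hsd17b7 ran the other way at 0.45 ± 0.25. Of 24 tested genes of glycolysis and the hypoxia response 18 had negative differences, with a median of -0.11 and all 24 intervals within 2-fold. Without untreated 2 the median was -0.02, and without untreated 3 it was -0.17. Pfkp, a phosphofructokinase gene, had the largest, from 1013, 1210 and 1105 to 726, 1004 and 866 (-0.32 ± 0.16). The 21 genes of the ATF4 amino acid response showed no such lean, with 12 positive differences and a median of 0.01. Slc7a11, the cystine transporter gene, read 6092, 3765 and 2957 against 4691, 6581 and 2969.

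Lists of cell identity gave no calls. Mesenchymal genes read high, with Vim, the vimentin gene, at 9010 to 9919 and Fn1, the fibronectin gene, at 7422 to 8543 over the 6 arrays, and differences of -0.07 ± 0.08 and 0.02 ± 0.08. Of 25 measured epithelial adhesion and keratin genes, 14 lay below the filter and 12 read under 20 on all 6 arrays, so most epithelial markers were near background in this lung tumour line. Krt19, a keratin gene, read 1280 to 2561, and Krt18 gave the largest difference of the list at 0.44 ± 0.36. The stem and progenitor list gave 0 calls in 11 tested, and the aldehyde dehydrogenase gene Aldh3a1 had a difference of 0.23 ± 0.23. Sox9, a transcription factor gene of lung progenitors, read 35363, 30784 and 23811 in untreated and 28510, 32760 and 35884 in antibody-treated cells, which overlap. The 21 immediate early and heat shock genes, which respond to handling, had a median of 0.04 and all intervals within 2-fold.

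Marker genes of other lung cells differed in level from list to list. Fibroblast markers were high: 6 of 9 were tested, and their summed intensity was 7663 to 11529 in untreated and 6606 to 11358 in antibody-treated cells, against 13156 to 19027 in lung. The collagen gene Col1a1 read 1397 to 2685 over the 6 arrays, with overlapping groups, and 597 to 1426 in lung. Of 8 alveolar type 1 markers 6 were tested, with sums of 2965 to 3111 in untreated and 2494 to 3107 in antibody-treated cells against 24319 to 31847 in lung. None of the tested genes of these lists had groups apart.

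Like the alveolar type 1 markers, the remaining marker lists read far below lung. Of 11 alveolar type 2 markers 5 were tested, and sums were 859 to 1393 in untreated and 1132 to 1523 in antibody-treated cells against 56083 to 84651 in lung. Sftpc, the surfactant protein C gene, read 9.46, 22.1 and 18.2 in untreated and 25.9, 27.1 and 54.4 in antibody-treated cells, against 9934 to 11940 in lung. Its groups lay apart at these low values, with a difference of 0.71 ± 0.25 that did not pass. Of 13 macrophage and monocyte genes 8 read under 20 on all 6 cell arrays, including Ptprc and C1qa, and sums were 880 to 1233 in untreated and 863 to 1110 in antibody-treated cells against 8366 to 12506 in lung. The brightest were Csf1r (332 to 623) and Cd14 (269 to 358), which overlapped between groups, while the groups of Msr1, given above, lay apart. Of 11 endothelial genes 8 read under 20, including Cdh5 and Pecam1, and the sum was 126 to 149 in untreated and 145 to 161 in antibody-treated cells. Of 8 club cell genes 1, Cyp4b1, was tested. It read 29.6, 25.4 and 24.2 in untreated and 45.0, 56.9 and 36.0 in antibody-treated cells (0.59 ± 0.17), with groups apart and no call, against 3553 to 6360 in lung. The defining club cell gene Scgb1a1 read 0.00988 to 22.8 over the 6 arrays. Sftpc, Msr1 and Cyp4b1 were thus higher in each treated array than in any untreated one, but each was the only such tested gene of its list. These lists had 5, 5 and 1 tested genes. Over all tested probe sets, 1.57% lay apart in this direction. Differences were positive for 4 of 5 tested alveolar type 2 genes and negative for 3 of 5 tested macrophage genes. The tested ciliated (1), lymphocyte (2) and erythroid (1) genes all had negative differences with overlapping groups. The part of such cells in other differences was not tested.

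**Figure D4:**
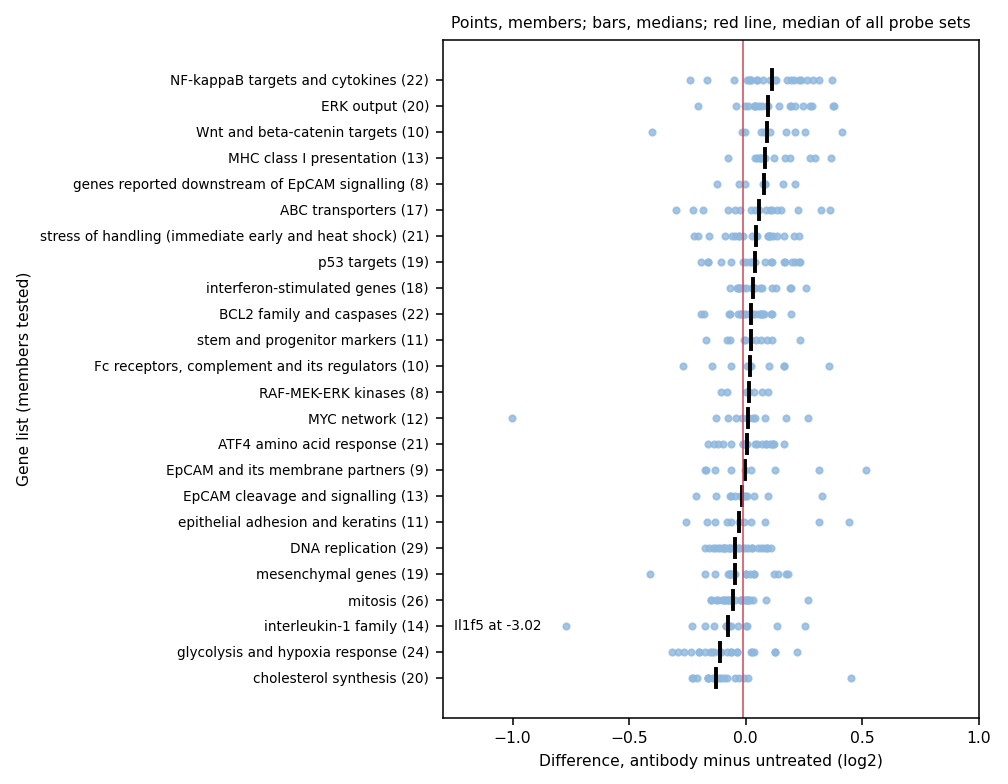
Difference between antibody-treated and untreated cells (log2, x axis) for the tested members of 24 gene lists (y axis, members tested in brackets), with a black bar at each list's median and a red line at the median of all tested probe sets, -0.01. Medians run from -0.13 to 0.11, and only Il1f5, written at -3.02 because it lies off the axis, was called.

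Over the 25 lists other than the marker lists, 386 different genes were tested of 454 measured. Of these 2 were called, Il1f5 and Omg, and 9 (2.33%) had groups apart, against 3.83% of all probe sets. A 95% interval within 2-fold was found for 360 of the 386 (93.3%). The signs of the list medians were mostly unsteady. In 7 of 24 lists the median kept its sign in each of 22 alternative settings: ABC transporters, ERK output, Wnt targets, the interleukin-1 family, MHC class I, cholesterol synthesis and glycolysis. The lists and their members were chosen with earlier results of these arrays known, so their leanings are a description.

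The largest coordinated pattern in these gene groups lay between preparations of the same group. Taking each list's median deviation from the 6-array mean, mitosis genes stood at -0.30, -0.04 and 0.38 on untreated 1 to 3 and at 0.17, -0.64 and 0.35 on antibody 1 to 3. The within-group SD was 0.44 and the difference between groups -0.05. DNA replication genes followed the same order, with -0.20, -0.01 and 0.24 in untreated and 0.15, -0.39 and 0.21 in antibody-treated cells. NF-kappaB targets stood at 0.58, -0.16 and -0.44 in untreated and 0.32, 0.36 and -0.47 in antibody-treated cells, with a within-group SD of 0.50 and a difference of 0.07. ATF4 targets were highest on untreated 1 (0.32) and antibody 2 (0.31) and lowest on untreated 3 (-0.26). Untreated 1 and antibody 2 thus read low for proliferation and high for cytokine and amino acid response genes, and untreated 3 and antibody 3 read the other way for mitosis and cytokines. Leaving out each array in turn moved the mitosis median between -0.21 and 0.25 and the NF-kappaB median between -0.11 and 0.47.

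Measures of RNA and labelling quality also differed between these arrays. The log2 ratio of the 3' to the 5' control probe set of Actb was 0.25, 0.42 and 0.86 on untreated 1 to 3 and 0.30, 1.21 and 0.22 on antibody 1 to 3. That of Gapdh was -0.12, -0.13 and 0.07 against -0.12, 0.40 and -0.12. Antibody 2 had the highest ratio for both, and untreated 3 the next highest. The dap labelling control was lowest on antibody 3 (438, against 628 to 761 elsewhere). Neither ratio separated the groups (exact two-sided permutation p = 0.9 for Actb and 0.5 for Gapdh, adjusted p = 1 over 6 such measures). The part of RNA quality in the differences between preparations was not tested.

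**Figure D5:**
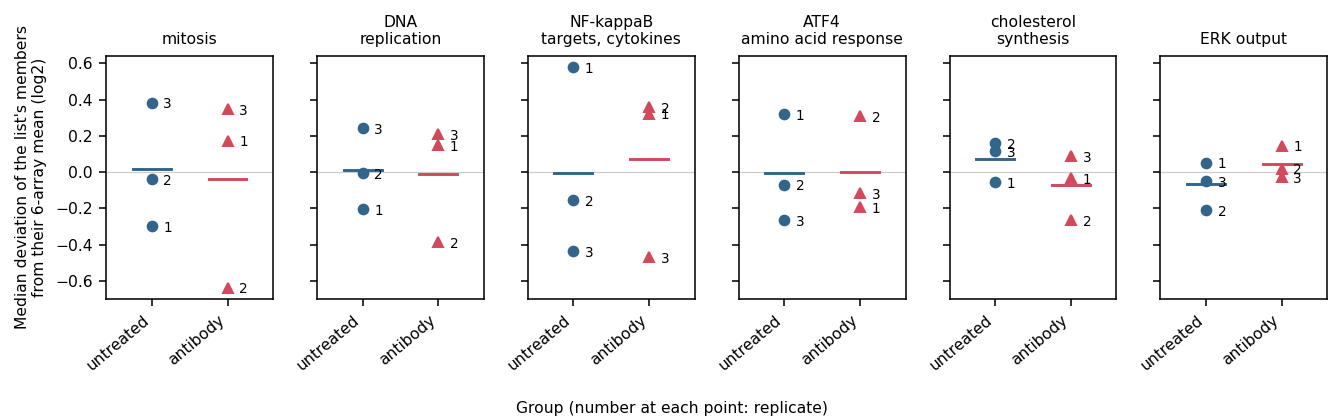
Median deviation of a list's tested members from their 6-array mean (log2, y axis) on each array of untreated cells (circles) and antibody-treated cells (triangles), with the replicate number beside each point and a bar at each group's mean. In every list shown the arrays of each group lie further apart than the 2 bars do.

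The size of difference that these arrays could show was set by that spread. The median SD within groups was 0.20 on the log2 scale, against a median absolute difference between groups of 0.08, and in 85% of probe sets the spread exceeded the difference. A 95% interval within 2-fold in either direction was found for 96.6% of tested probe sets and within 1.5-fold for 75.0%. The median distance from the estimate to either end of the interval was 0.38 for probe sets under an intensity of 100 and for those between 100 and 1000, and 0.32 above 1000. A difference over 2-fold was measured for 80 probe sets, 39 higher and 41 lower after antibody, of which 19 had groups apart. For most probe sets a difference smaller than this distance could not be told from 0 with 3 arrays per group, even before adjustment. After adjustment over all probe sets much larger differences did not pass in the main setting, such as -1.67 for Sdk2 and -2.34 for 2610037D02Rik.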

How the data were processed

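The deposited values are linear intensities per probe set, summarized with PLIER, per the submitters' processing notes. Its version, settings and scaling are not given in the sources used here. Of 45101 probe sets, 64 controls were left out. Arrays give no read depth, and their number limits the precision. Values were transformed as log2(intensity + 16) and quantile normalized over 22 arrays. A probe set was tested if above its array's 40th percentile on at least 3 of the 6 cell arrays. Groups were compared with limma 3.58.1 in R 4.3.3 (moderated variances with an intensity trend, two-sided, Benjamini-Hochberg at 0.05), checked on simulated data. Errors of differences are the model's SE. Levels in the text are deposited intensities, and differences are normalized log2 values. "Groups apart" means that the normalized values of 3 and 3 arrays do not overlap. The supplied platform table gave 34945 probe sets 1 gene symbol, updated through RefSeq (GRCm38.p6), and 932 several, while 9160 were not listed. A list gene was read by its brightest probe set over the cell arrays, avoiding cross-hybridizing types.

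The comparison, the lists, their members and the rule for named genes were chosen with earlier results of these data known. The rule names Epcam, called probe sets and their genes' other sets, the 8 smallest p in each direction, up to 4 members of largest difference and 4 of highest level per list, and the largest ranges within a group. Members near background, members whose groups lay apart, Adam17, Abcg2, Nf1, Evi2a, Wars2 and the interleukin-36 genes were named outside it, after their values were seen. The jump limits of 20 and 100 were also set after the values were seen. Same-numbered preparations were not treated as pairs. The alternatives were other normalizations, offsets, filters, probe set rules, variance settings, arrays in the fit, a replicate block and leaving out each array. Actb ratio as a covariate was added after seeing the data.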

Additional observations from a re-analysis of the deposited data

Results flagged for a closer look

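Of the Epcam values, 1 lung array stood apart from the others of its group. On the probe set 1447899_x_at, 1 of the 8 lungs labelled female read 254, and the next highest read 204. That gap is 0.611 of the whole range of the group, above the limit of 0.526 for 8 samples (Dixon's test). About 1 in 20 groups passes this limit by chance, and many groups were screened. They were the male and the female lungs for both Epcam sets, the called sets and the second Il1f5 set. The cell groups of 3 arrays are too small for the same test, and the comparison of the cells uses no lung array other than in the normalization.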

How the results depend on the processing

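The count of 3 called probe sets (1 higher and 2 lower after antibody) was unchanged with no normalization, with quantile normalization of the 6 cell arrays alone, with no filter, with a 60th percentile filter, with no intensity trend and with the Actb ratio as a covariate. Median centring gave 4, an offset of 64 gave 5 and robust variances 5, of which 4 were lower in both of the latter, array weights gave 6 (5 lower) and all 22 arrays in the fit gave 10 (4 higher, 6 lower). The count fell to 2 with an offset of 1 (1 lower, Omg at a limma adjusted p of 0.353). It was also 2 with 1 probe set per gene and with probe sets averaged per gene, where 0 were higher because 1420223_at has no listed gene. The ordinary t statistic left 1 (0 higher, 1 lower, Il1f5). Median centring gave 3 lower. Il1f5 passed in each of 22 settings, with limma adjusted p from 8.70e-11 to 0.00700. Among the added calls, 2610037D02Rik passed in 6 of the 20 settings that tested it and Sdk2 in 4 of 21. Leaving out single arrays gave 3 to 11 calls (1 to 8 higher, 2 to 6 lower), and each time all 3 calls were among them. The count was 11 without untreated 2, 8 without antibody 2 and 7 without untreated 1. The share of intervals within 2-fold then ran from 94.6% to 95.4%.

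The labels give both groups the numbers 1 to 3. Deviations of same-numbered arrays correlated at 0.04, -0.17 and -0.01. Those of differently numbered arrays of the 2 groups ran from -0.13 (untreated 1 with antibody 3) to 0.17 (untreated 2 with antibody 3). With 3 arrays per group these values cannot show whether same-numbered preparations were made together. With a replicate block 3 probe sets were called and 97.3% of intervals lay within 2-fold.

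The limits are 3 preparations per group from 1 line, no control antibody named in the labels, single probe sets behind each call and signal near background on one side of each. No setting reversed a call.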

Other observations

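The brightest probe sets in the sorted cells read Eya4, Sox9, Lgals1, Tpt1, Eef1a1 and the ribosomal protein genes Rps29, Rpl38, Rps10, Rps28 and Rpl4, with 0 calls. Eya4 and Sox9 hold the top ranks, whose values quantile normalization fixes, so their normalized differences are not read. For the other 8 the differences ran from -0.09 to 0.01 on the log2 scale. Eya4, a developmental transcription cofactor gene, varied most among arrays in deposited intensity, with 33176, 26334 and 28039 in untreated and 41690, 40725 and 18329 in antibody-treated cells. Lgals1, the galectin-1 gene, read 12198 to 13504 on all 6 arrays. Intensities of different probe sets do not rank transcripts by abundance.

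Departures of single preparations were more frequent than calls. On antibody 3, 264 tested probe sets read more than 1 log2 unit below both other arrays of its group and 39 above. On antibody 2 these counts were 176 and 69, and on untreated 1 they were 96 and 110. Antibody 1 (42 below and 32 above) and untreated 3 (70 and 25) departed least often.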
